A study of Mus musculus with 6 samples.

Results

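The 42 genes described here encode the machinery of DNA replication and S phase, and all 42 had a row among the 23412 rows of the deposited gene counts. They were taken by symbol from a list of replication factors that was drawn up with earlier results of these data known, and 42 of the 42 passed the filter on low counts. RNA came from splenic germinal centre B cells sorted as B220+, GL7+ and Fas+ on day 10 after sheep red blood cells were given to mice. DAF-TM mice were Cg1-cre(+/-);DAF-TM(fl/fl), where a cassette for the complement regulator DAF at the Rosa26 locus is switched on by Cre. Control mice were Cg1-cre(+/-), to which the treatment field adds DAF-Tg(+/+), while the header of the counts writes the Cre allele of both groups as (+/fl). Both groups thus carried Cg1-cre, known to act in activated B cells. Strain, age and sex of the mice and the number of mice behind a library are not given in the labels, so p-values measure the spread between libraries, which may be technical.

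The labels list 3 replicates per group, but each of the 23412 rows gives DAF-TM replicates 2 and 3 the same number. That pair, identical in every row, counts here as 1 library, DAF-TM library 2. This leaves 2 DAF-TM and 3 Cg1-cre libraries with 7257339 to 12783965 counts each. Cd55, the mouse gene of DAF, checked the labels: it stood at 712 and 725 CPM in the DAF-TM libraries, against 28.7, 34.3 and 23.4 CPM in the Cg1-cre libraries (log2 fold change 4.63, SE 0.18, edgeR adjusted p = 3.61e-110). Reads of the cassette and of the mouse gene cannot be told apart in this row. Levels are TMM-scaled CPM, read counts relative to library size, where the scaling sets libraries to a common level through the bulk of their genes. The sex-linked genes differed within groups: Xist stood at 291 and 797 unscaled CPM in DAF-TM libraries 1 and 2, against 744, 2.42 and 2.89 in Cg1-cre libraries 1 to 3. Y-linked reads summed to 284 and 0 CPM in DAF-TM libraries 1 and 2, against 0.104, 653 and 483 in Cg1-cre libraries 1 to 3. Only DAF-TM library 1 thus held both in number. Of 14 germinal centre B cell markers, such as Bcl6, none was at 0, and they summed to 13012 and 11927 CPM in DAF-TM libraries, against 12955 to 15528 in Cg1-cre libraries. In sorted bulk RNA, fewer cells in S phase and less replication RNA per cell cannot be told apart.

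Replication starts at origins that the origin recognition complex marks and that Cdc6 and Cdt1 load with the MCM helicase in G1. At the entry into S phase cyclin E and its kinase free E2F factors from the retinoblastoma proteins, the helicase is completed with Cdc45 and GINS, and primase, polymerases, the PCNA clamp and its loader copy the strands. Germinal centre B cells are among the fastest dividing cells of the body, and they divide mainly in the dark zone after help from T cells in the light zone.

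Many of these genes are known targets of E2F factors, so their promoter windows were read for the letters these factors are known to bind. RefSeq windows (GRCm38.p6, 250 bases before to 50 after 1 annotated start of transcription per gene) were found for 36 of the 42 genes, and Ccne2, Gins1, Gins2, Mcm4, Pole and Rfc2 were without an entry. The letters searched on both strands were TTTCCCGC, TTTCGCGC, TTTGCCGC and TTTGGCGC, matches of which can overlap on opposite strands. At least 1 of these was present in 13 of the 36 windows (36.1%), against 450 of 13628 windows of all genes tested (3.30%). The share was alike in windows of other replication genes, 15 of 41 (36.6%). The median G+C content was 59.2% in the members' windows and 58.7% in all windows. Matches of this kind were found 2 or more times in 5 members, Mcm3, Mcm5, Mcm6, Mcm7 and Rfc3. They were found that often in 0 of the 41 windows of other replication genes and in 0.161% of all windows. The CCAAT letters were found in 21 of 36 windows (58.3%), against 38.5% of all. They stood in 63.4% of the windows of other replication genes and in 80.8% of those of mitosis genes. The letters TTTGAA, known as the CHR element of mitotic genes, were found in 4 of 36 windows (11.1%), against 13.6% of all. In windows of 26 mitosis genes the order was the other way round, with E2F letters in 1 (3.85%) and TTTGAA in 20 (76.9%). A match is only a description of the letters, and it shows neither binding nor use in these cells.

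**Figure D1:**
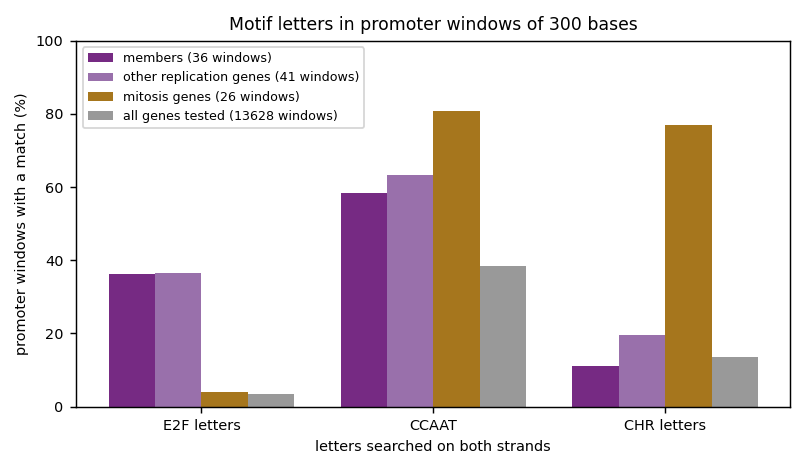
Share of RefSeq promoter windows (y axis, percent) that hold the E2F letters, CCAAT or the CHR letters TTTGAA (x axis) on either strand, for the 36 replication and S phase genes with a window, 41 other replication genes, 26 mitosis genes and 13628 genes tested. The E2F letters stand in 36.1% of the members' windows, 36.6% of those of other replication genes and 3.30% of all. The CHR letters stand in 76.9% of the mitosis windows.

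The stretches that follow, from 2 subunits of the MCM helicase, hold a match and lie before the start of transcription the window is built on, outside the RefSeq span of the gene and outside every annotated exon (GENCODE M21). They are shown because they carry the letters counted above. Capitals mark the E2F letters on either strand, and each sequence is written 5′ to 3′ on the strand of its gene.
Mcm5, chr8:75109259-75109467, plus strand: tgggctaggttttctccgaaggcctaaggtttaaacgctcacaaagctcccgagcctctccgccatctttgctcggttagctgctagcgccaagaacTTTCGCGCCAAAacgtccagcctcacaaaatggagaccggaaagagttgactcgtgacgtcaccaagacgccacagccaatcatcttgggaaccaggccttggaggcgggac
Mcm6, chr1:128359706-128359955, minus strand: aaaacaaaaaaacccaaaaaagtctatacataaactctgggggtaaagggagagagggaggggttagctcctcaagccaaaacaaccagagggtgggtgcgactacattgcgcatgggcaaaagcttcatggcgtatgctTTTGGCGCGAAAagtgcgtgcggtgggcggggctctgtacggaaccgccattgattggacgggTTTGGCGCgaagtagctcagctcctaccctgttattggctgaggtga
Positions were counted back from the start each window is built on, base 75109509 for Mcm5 and base 128359705 for Mcm6. The RefSeq span of Mcm5 begins 41 bases before that start, and these bases were left out. In both genes a pair of matches on opposite strands overlaps, with first bases at -153 and -149 in Mcm5 and at -110 and -106 in Mcm6, and Mcm6 holds a further match at -47.

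The comparison of DAF-TM with Cg1-cre cells asks whether forced DAF in germinal centre B cells comes with a change in this replication program. The 42 genes took 1.01% and 0.96% of all counts in DAF-TM libraries 1 and 2, and 1.06%, 0.928% and 1.03% in Cg1-cre libraries 1 to 3, so the groups overlapped. The log2 fold changes ran from -0.32 for Pola1 to 0.12 for Cdc6, with SEs of 0.16 to 0.18. No member passed the test at an edgeR adjusted p of 0.05: higher calls numbered 0 of 42, against 0.373% of all 18767 genes tested, and lower calls 0 of 42, against 0.0373%. In both directions 0.41% of all genes were called. At an unadjusted p under 0.05 the count was also 0 of 42, against 5.74% of all genes. DESeq2 called 0 members, against 0.199% of all genes (3.82% unadjusted, again 0 members), and limma-voom called 0, against 0.272% (5.74% unadjusted, again 0 members). The other edgeR settings called 0 members too. Over all genes they called 0.426% with RLE factors, 0.208% with upper-quartile factors, 0.372% with no filter, 0.428% and 0.178% with a minimum of 1 and 10 CPM, and 0.325% with the replicate number as a block. With the block 1 member, Pola1, had an unadjusted p under 0.05, against 4.5% of all genes. The 95% intervals of all 42 genes held 0 on the log2 scale, and none reached below 0.637-fold or above 1.36-fold. These intervals rest mainly on the spread pooled over genes, since the fit has 3 residual degrees of freedom. A gene that does not pass is not thereby shown to be equal in both groups.

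**Figure D2:**
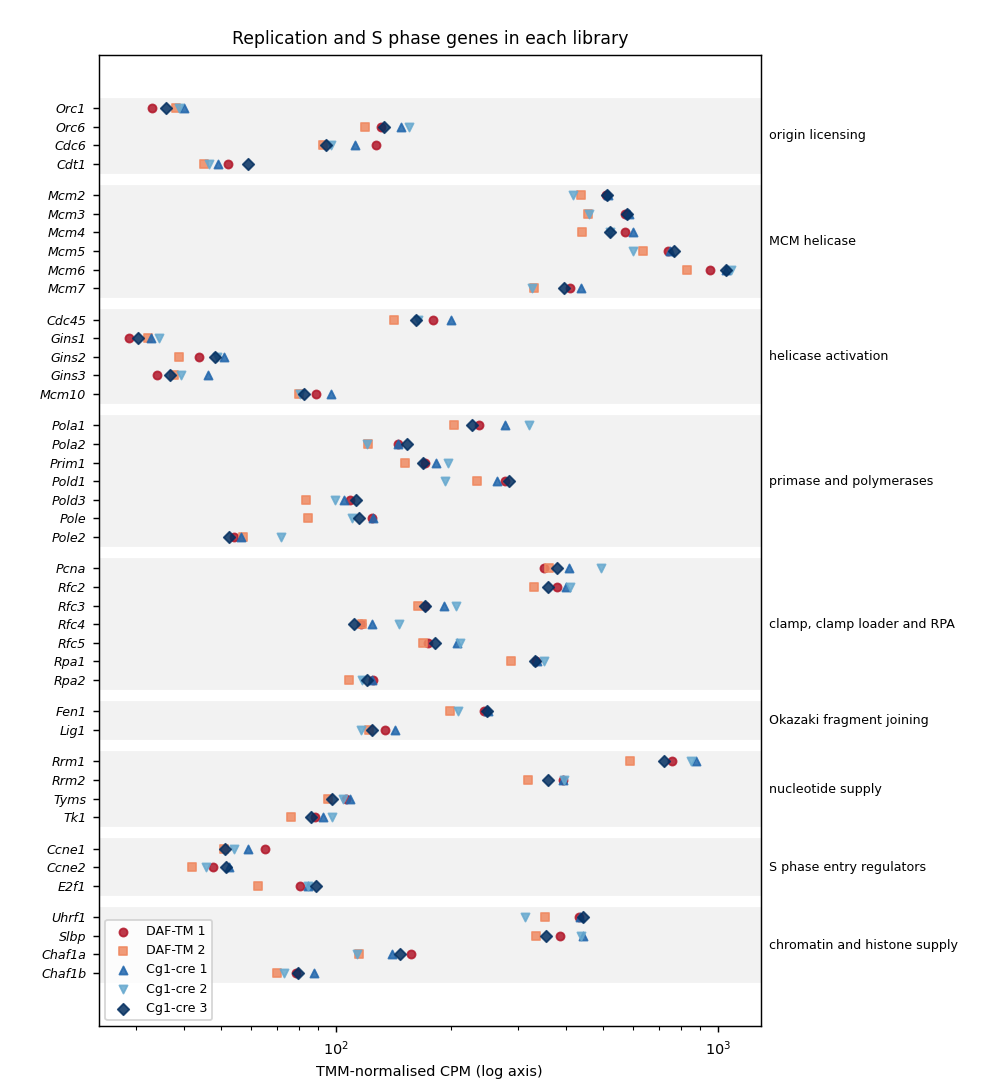
TMM-normalised CPM (log x axis) of each of the 42 genes (rows, grouped by role) in the 2 DAF-TM and 3 Cg1-cre libraries, 1 point per library. The groups overlap for 36 of the genes, and DAF-TM library 2 is the lowest point in 28 rows.

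The fold changes leaned below 0. Of the 42 genes 37 had a negative log2 fold change, against 46.1% of all genes tested and 68.2% of those with at least 10 CPM in 3 libraries. The median was -0.12, against 0.03 over all genes and -0.08 over those of at least 10 CPM. On the scaled levels most of this lean came with DAF-TM library 2. The TMM factor of that library, which divides its levels, was 1.11. The factors were 0.984 in DAF-TM library 1 and 0.982, 0.923 and 1.01 in Cg1-cre libraries 1 to 3. In unscaled counts the members' share was 0.96% in DAF-TM library 2, above the 0.928% of Cg1-cre library 2. The part of the scaling in the lean was not tested. Relative to the Cg1-cre mean, the members' median log2 level was -0.00072 in DAF-TM library 1 and -0.23 in DAF-TM library 2, against 0.07, -0.03 and -0.07 in Cg1-cre libraries 1 to 3. DAF-TM library 2 was the lowest of the 5 libraries for 28 genes and the highest for 0, while DAF-TM library 1 was the lowest for 4 and the highest for 4. Without DAF-TM library 2 the median was 0.00045 with 21 genes below 0, and without DAF-TM library 1 it was -0.24 with all 42 below 0. Each of these fits, here and for other genes, leaves 1 DAF-TM library, which is assumed to vary as the Cg1-cre libraries do. In that last fit 4 members, Pola1, Pole, Rrm1 and E2f1, had an unadjusted p under 0.05, against 9.03% of all genes. Without Cg1-cre library 3 there were 2, Pola1 and Rrm1, against 6.76% of all genes. No member passed after adjustment in any fit with a library left out, where the calls over all genes were 0.0717% and 0.616% without DAF-TM library 1 and 2, and 0.232%, 0.431% and 0.239% without Cg1-cre library 1, 2 and 3. The lowest adjusted p of any member was 0.881 (edgeR), and over the alternatives its lowest value was 0.518, without DAF-TM library 1.

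The members are well expressed, and genes of their level leaned the same way. All genes with a mean of 1 to 10 CPM had a median log2 fold change of 0.23, those of 10 to 100 CPM -0.05 and those of 100 to 1000 CPM -0.14. The members' medians in the last 2 ranges were -0.11 over 12 genes and -0.12 over 30 genes. In DAF-TM library 2 alone, all genes of 100 to 1000 CPM stood at a median of -0.23 against the Cg1-cre mean, and in DAF-TM library 1 at -0.05. With genes limited to at least 10 CPM in 3 libraries, and the scaling drawn from these, the members' median was -0.039 and that of all 9013 genes was -0.00042. Markers of natural killer cells were higher in DAF-TM libraries: 8 of 12 were called, against 0.373% of all genes called higher, and none was at 0. An unadjusted p under 0.05 (edgeR) was found for 10 of 12, against 5.74% of all genes. These markers summed to 184 and 97.9 CPM in DAF-TM libraries, against 54.9 to 92.5 in Cg1-cre libraries. The part of the level trend and of other cells in the members' values was not tested.

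**Figure D3:**
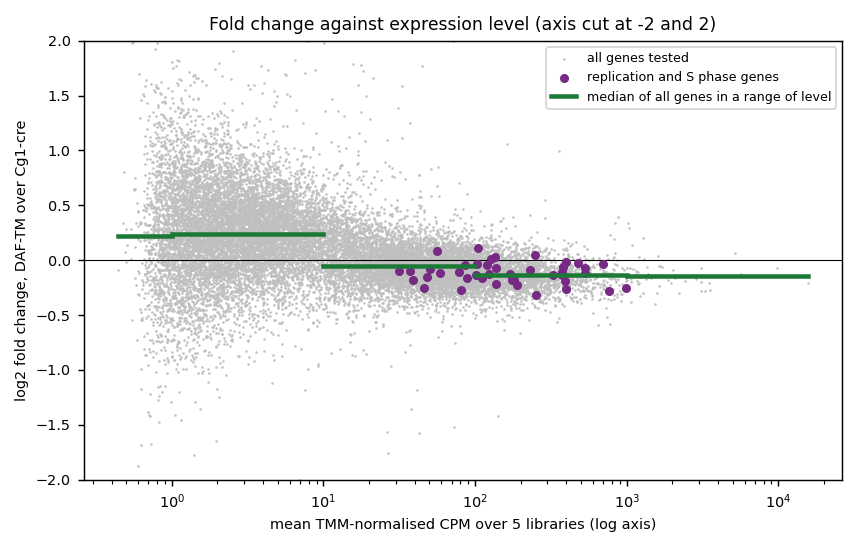
Log2 fold change of DAF-TM over Cg1-cre (y axis) against the mean TMM-normalised CPM over 5 libraries (log x axis) for 18767 genes tested (grey) and the 42 replication and S phase genes (purple), with the median of all genes in each range of level (green lines). The median of all genes is 0.23 at 1 to 10 CPM, -0.05 at 10 to 100 CPM and -0.14 at 100 to 1000 CPM. The members' median is -0.11 over the 12 genes at 10 to 100 CPM, below the line. Over the 30 genes at 100 to 1000 CPM it is -0.12, near the line.

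Origin licensing factors did not pass the test in either direction (0 of 4, median -0.09). Orc6, a subunit of the origin recognition complex (chromosome 8, 85299632 to 85308279), had 131 and 119 CPM in DAF-TM libraries, against 148, 155 and 134 in Cg1-cre libraries. Its groups did not overlap, and the 95% interval held 0 (log2 fold change -0.22, SE 0.17, edgeR adjusted p = 0.945). Cdc6, which loads the helicase together with Cdt1, had the highest fold change of all members, 0.12 (SE 0.16), from 127 and 92.3 CPM in DAF-TM libraries, against 113, 97.0 and 94.4 in Cg1-cre libraries. DAF-TM library 1 was the highest and DAF-TM library 2 the lowest of the 5 for this gene. Orc1, the largest subunit of the origin complex, and Cdt1 stood at -0.10 and -0.08.

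The 6 subunits of the MCM helicase, Mcm2 to Mcm7, form 1 ring that unwinds the DNA, and 0 of 6 passed (median -0.06). Mcm6 (chromosome 1, 128331575 to 128359705) had 952 and 828 CPM in DAF-TM libraries, against 1053, 1081 and 1053 in Cg1-cre libraries. The groups did not overlap, and the Cg1-cre values lay within 1.03-fold of each other (log2 fold change -0.26, SE 0.17, adjusted p = 0.945). Mcm2 had the highest fold change of the 6 subunits, with 510 and 438 CPM in DAF-TM libraries, against 515, 419 and 514 in Cg1-cre libraries (log2 fold change -0.02, SE 0.17). Here Cg1-cre library 2 was the lowest and DAF-TM library 2 came next. DAF-TM library 2 and Cg1-cre library 2 were the lowest pair for Mcm3, Mcm4, Mcm5 and Mcm7 too, whose fold changes lay between -0.12 and -0.04. Per kilobase of merged exons (GENCODE M21, all isoforms, which need not be those of these cells), Mcm6 had the highest mean level of the 42 genes, 213 CPM per kb, followed by Mcm5 at 175, Pcna at 166 and Mcm4 at 148, and Pole had the lowest, 10.0. The gap between Mcm6 and Mcm5 on this scale was not tested.

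Factors that complete the helicase gave 0 of 5 past the test (median -0.12). Gins2, a subunit of the GINS ring (chromosome 8, 120581266 to 120589075), had 43.9 and 38.9 CPM in DAF-TM libraries, against 50.9, 48.8 and 48.4 in Cg1-cre libraries. The groups did not overlap (log2 fold change -0.25, SE 0.17, edgeR adjusted p = 0.945), and its span overlaps that of Gse1. Mcm10, which helps to activate the helicase, was the highest of these at -0.04, with 88.6 and 80.1 CPM in DAF-TM libraries, against 97.3, 80.4 and 82.7 in Cg1-cre libraries. Cdc45, Gins1 and Gins3 stood between -0.18 and -0.10.

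Primase and polymerase genes gave 0 of 7 past the test (median -0.14). Pola1, the catalytic subunit of polymerase alpha, which extends the primer, was the member of lowest p and the only one on the X chromosome (93304766 to 93632387). It had 237 and 204 CPM in DAF-TM libraries, against 278, 321 and 227 in Cg1-cre libraries (log2 fold change -0.32, SE 0.17, adjusted p = 0.881). The groups overlapped, since DAF-TM library 1 lay above Cg1-cre library 3. The libraries with Xist but almost no Y-linked reads, DAF-TM library 2 and Cg1-cre library 1, held 204 and 278 CPM of Pola1, the lowest and the second highest value. The part of sex in this gene was not tested. Pold1, the catalytic subunit of polymerase delta, was the highest of these at 0.05 (SE 0.17), with 277 and 234 CPM in DAF-TM libraries, against 265, 193 and 284 in Cg1-cre libraries. Its Cg1-cre values differed by 1.47-fold, the widest of the 42 genes. The primase subunit Prim1, Pola2, Pold3 and the polymerase epsilon subunits Pole and Pole2 stood between -0.18 and -0.07.

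The clamp, its loader and the single-strand binding protein RPA gave 0 of 7 past the test (median -0.13). Pcna, the ring that holds polymerases on DNA (chromosome 2, 132249286 to 132253180), had 352 and 363 CPM in DAF-TM libraries, against 407, 495 and 380 in Cg1-cre libraries. The groups did not overlap (log2 fold change -0.26, SE 0.17, adjusted p = 0.945). RefSeq lists pseudogenes of Pcna, and the share of reads that match several copies is not known here. Rfc5, a subunit of the clamp loader (chromosome 5, 117379145 to 117389023), had 174 and 169 CPM in DAF-TM libraries, against 207, 211 and 182 in Cg1-cre libraries, also with no overlap (log2 fold change -0.23, SE 0.17, adjusted p = 0.945). Rpa2 was the highest of this group at -0.05, with 125 and 109 CPM in DAF-TM libraries, against 124, 117 and 121 in Cg1-cre libraries. Rfc2, Rfc3, Rfc4 and Rpa1 stood between -0.18 and -0.12.

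Fen1 and Lig1, which trim and join the fragments of the lagging strand, did not pass (0 of 2, median -0.04). Fen1 had 245 and 199.5 CPM in DAF-TM libraries, against 251, 209 and 248 in Cg1-cre libraries (log2 fold change -0.09, SE 0.17). Lig1 had 135 and 122 CPM in DAF-TM libraries, against 143, 116 and 124 in Cg1-cre libraries (0.01, SE 0.17). Both genes overlapped between the groups.

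Enzymes of nucleotide supply gave 0 of 4 past the test (median -0.14). Rrm1, the large subunit of ribonucleotide reductase (chromosome 7, 102441695 to 102469771), had 757 and 587 CPM in DAF-TM libraries, against 877, 850 and 724 in Cg1-cre libraries (log2 fold change -0.28, SE 0.17, edgeR adjusted p = 0.928). DAF-TM library 1 lay above Cg1-cre library 3. Tyms, which makes thymidylate, had 107 and 95.4 CPM in DAF-TM libraries, against 109, 104 and 97.9 in Cg1-cre libraries (log2 fold change -0.04, SE 0.17). Its pseudogene row held at most 6 counts in a library. Rrm2 and the thymidine kinase Tk1 stood at -0.11 and -0.17.

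Regulators of S phase entry gave 0 of 3 past the test (median -0.15). E2f1, an activator of many of the other members (chromosome 2, 154559400 to 154569892), had 80.5 and 62.4 CPM in DAF-TM libraries, against 84.5, 84.7 and 88.8 in Cg1-cre libraries. The groups did not overlap (log2 fold change -0.27, SE 0.17, adjusted p = 0.945), with DAF-TM library 2 lying apart from the other 4. Its span overlaps that of Necab3. Ccne1, cyclin E1, had 65.4 and 50.8 CPM in DAF-TM libraries, against 59.0, 54.3 and 51.4 in Cg1-cre libraries, so that the DAF-TM libraries were the highest and the lowest (0.08, SE 0.17). Ccne2 stood at -0.15.

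Genes of chromatin and histone supply gave 0 of 4 past the test (median -0.06). Slbp, which binds the stem loop of histone mRNA, had 387 and 335 CPM in DAF-TM libraries, against 444, 439 and 355 in Cg1-cre libraries (log2 fold change -0.19, SE 0.17). Chaf1a, the large subunit of the chromatin assembly factor, had 157 and 115 CPM in DAF-TM libraries, against 140, 114 and 147 in Cg1-cre libraries (0.03, SE 0.17). DAF-TM library 1 was the highest of the 5 for Chaf1a. Uhrf1, which brings the DNA methyltransferase to new DNA, and Chaf1b stood at -0.01 and -0.11.

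**Figure D4:**
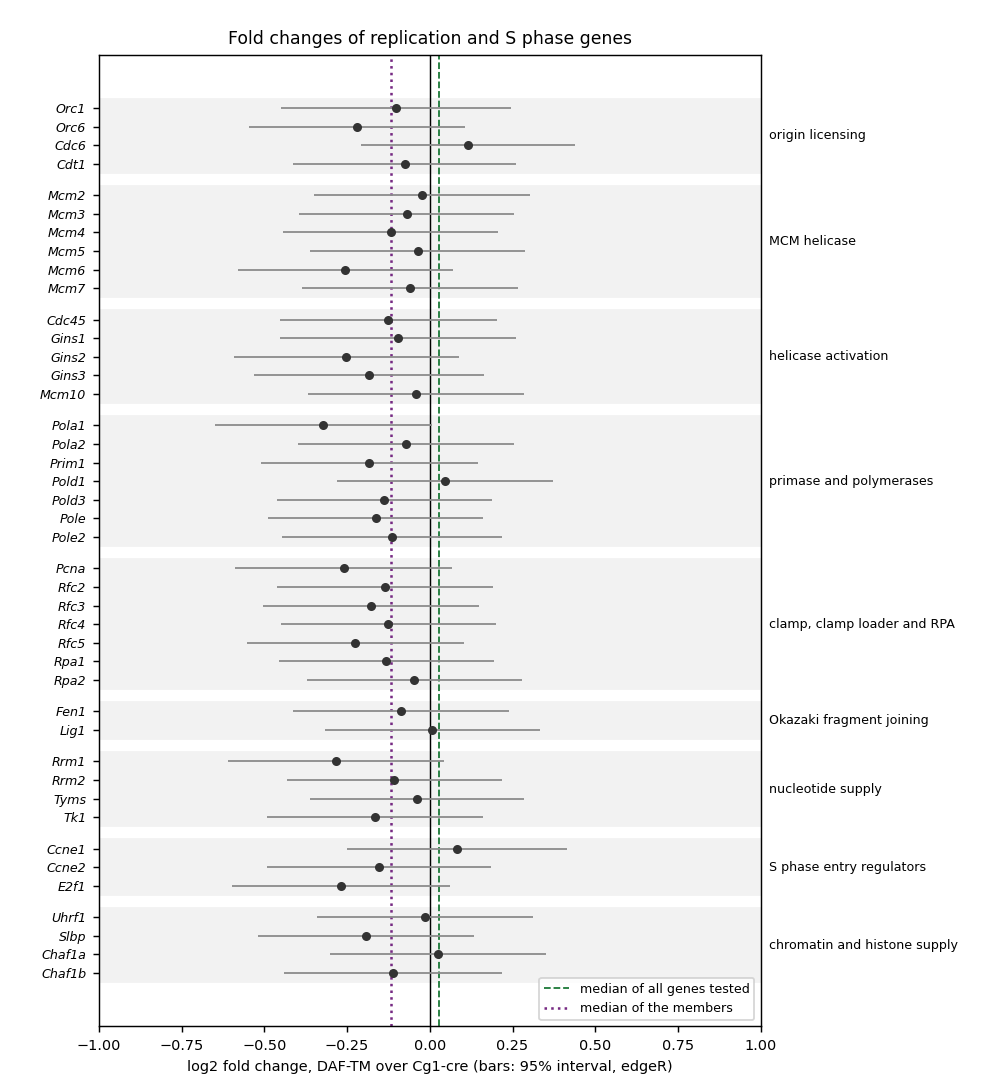
Log2 fold change of DAF-TM over Cg1-cre (x axis) with its 95% interval from edgeR for each of the 42 genes (rows, grouped by role), and the medians of the members (-0.12, dotted) and of all genes tested (0.03, dashed). Every interval holds 0, and Pola1 lies farthest to the left at -0.32.

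For 6 of the 42 genes the DAF-TM libraries lay below every Cg1-cre library, Orc6, Mcm6, Gins2, Pcna, Rfc5 and E2f1, and for 0 they lay above. Of all genes tested, 9.02% lay below and 11.3% above, together 20.3%. Among all genes of at least 10 CPM in 3 libraries, a limit that all 42 members pass, 16.1% lay below and 4.72% above, so the members' 14.3% below was near that of genes of their level.

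The members did not move as 1 block between libraries. Cg1-cre library 2 was the highest of the 5 for 14 genes, among them Pcna, Mcm6, Pola1, Prim1, Rfc3, Rfc4 and Rfc5, and the lowest for 8, Mcm2, Mcm5, Mcm7, Pola2, Pold1, Lig1, Uhrf1 and Chaf1a. The median of the MCM subunits was -0.22 in that library and that of the clamp, loader and RPA genes was 0.08, relative to the Cg1-cre mean. In DAF-TM library 1 these medians were 0.08 and -0.13, so the sign was opposite. In DAF-TM library 2 both were below 0, at -0.23 and -0.24. Over the 42 genes the ratio of the highest to the lowest Cg1-cre library had a median of 1.20, and it ran from 1.03 for Mcm6 to 1.47 for Pold1.

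**Figure D5:**
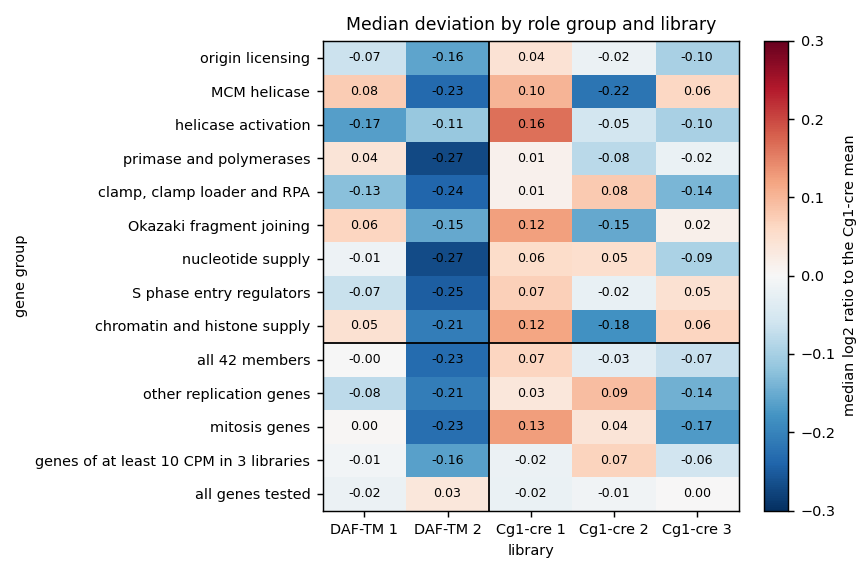
Median log2 ratio to the Cg1-cre mean (colour and printed value) for each role group, all 42 members and comparison lists (rows) in DAF-TM libraries 1 and 2 and Cg1-cre libraries 1 to 3 (columns). DAF-TM library 2 is below 0 in every role group, from -0.27 to -0.11, and DAF-TM library 1 lies on both sides of 0.

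The rest of the replication machinery gave a similar count. Over all genes 0.41% were called, 5.74% had an unadjusted p under 0.05 (edgeR) and 46.1% were below 0. Of those with at least 10 CPM in 3 libraries 68.2% were below 0. Of 53 other replication genes, such as the kinase Cdc7, the checkpoint factor Clspn and the primase subunit Prim2, 0 were called higher and 0 lower, and 1 had an unadjusted p under 0.05 (median -0.14, 49 below 0). That gene was Dck, deoxycytidine kinase of the nucleotide salvage pathway, with 735 and 672 CPM in DAF-TM libraries, against 920, 969 and 803 in Cg1-cre libraries (log2 fold change -0.35, SE 0.17, edgeR adjusted p = 0.829). Of 30 mitosis genes 0 were called (median -0.12, 26 below 0), and their median was -0.23 without DAF-TM library 1 and 0.0030 without DAF-TM library 2. Ccnb1, cyclin B1, had the lowest p of these, with 258 and 214 CPM in DAF-TM libraries, against 323, 335 and 256 in Cg1-cre libraries (-0.37, SE 0.17, adjusted p = 0.795).

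A list of 9 genes held the G1 cyclins Ccnd1, Ccnd2 and Ccnd3, the kinases Cdk4 and Cdk6, and Myc, Mycn, Cdc25b and Skp2. In this G1 list 1 gene rose, against 0.373% of all genes called higher, and 8 did not pass (median -0.08). Ccnd2, cyclin D2, which drives G1 with Cdk4 and Cdk6, rose 1.67-fold, with 56.2 and 34.5 CPM in DAF-TM libraries, against 27.0, 25.9 and 28.6 in Cg1-cre libraries (log2 fold change 0.74, SE 0.18, adjusted p = 0.0128). The groups did not overlap, and DAF-TM library 1 lay far above library 2. Leaving out DAF-TM library 1 ended the call (0.34, adjusted p = 0.594), as did leaving out Cg1-cre library 1 (adjusted p = 0.149) or 3 (0.0613). It was also lost with DESeq2 (0.332), limma-voom (0.153), the replicate block (0.0844) and a minimum of 10 CPM (0.165). Of 16 cell cycle brakes, such as Cdkn1b and Rb1, 0 were called (median -0.06, range -1.41 to 0.57). An unadjusted p under 0.05 (edgeR) was found for 3 of the 16, against 5.74% of all genes. E2f5, a repressor E2F, had the lowest p, with 39.8 and 40.7 CPM in DAF-TM libraries, against 53.9, 57.7 and 47.4 in Cg1-cre libraries (-0.40, SE 0.17, adjusted p = 0.770).

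Replication-dependent histone genes are transcribed in S phase, and most of their mRNA lacks a poly(A) tail, so that an oligo-dT library holds little of it. Of 68 histone rows 44 passed the filter, 6 were at 0 in every library, and 0 were called (median log2 fold change -0.30). Below 0 were 32 of the 44, against 46.1% of all genes tested. An unadjusted p under 0.05 (edgeR) was found for 5 of the 44, against 5.74% of all genes. The histone rows summed to 381 and 477 CPM in DAF-TM libraries, against 585, 505 and 557 in Cg1-cre libraries, with no overlap. Hist1h4c had the lowest p, with 3.96 and 7.85 CPM in DAF-TM libraries, against 8.57, 10.3 and 15.5 in Cg1-cre libraries (-0.94, SE 0.30, adjusted p = 0.239), and it passed only in the fit without DAF-TM library 2 (-1.52, adjusted p = 0.0291). That fit holds 1 DAF-TM library, so its spread comes from the Cg1-cre libraries alone. Histone genes are near-identical copies, so the count of a single row is uncertain.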

How the data were processed

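Raw gene counts deposited by the authors, whole numbers per gene symbol, were analysed as deposited. Reads were aligned to mm10, per the file headers, and bcl2fastq, HISAT2 and featureCounts are named in the submitters' processing notes. An oligo-dT kit (SMART-Seq v4) was used on 10 ng of RNA, and single ends of 100 nt were read, per the labels' protocols. The labels and headers name no annotation, no strand setting and no rule for reads with several hits, so the values of the 11 members whose RefSeq span overlaps another gene, and of genes with pseudogenes, are uncertain. The 27 rows whose names a spreadsheet turned into dates stayed in the library sizes.

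Genes were tested with edgeR 4.0.16 (R 4.3.3): TMM factors, filterByExpr by group, a robust glmQLFit and a two-sided glmQLFTest, Benjamini-Hochberg adjusted over 18767 genes, threshold 0.05. SEs are the log2 fold change over the square root of F. Adjusted p-values are those of edgeR where no other tool is given. Alternative settings were RLE and upper-quartile factors, 3 other filters on low counts, DESeq2 1.42.0, limma-voom (limma 3.58.1), the replicate number as a block, and each library left out. Log2 levels per library used a pseudocount of 0.5. The fit was tested on simulated data. Members ran from 223 to 12744 counts in a library. Counting error is small beside the spread between libraries pooled over genes (common biological coefficient of variation 0.177). For single members of low counts, such as Gins2, it is not small beside the spread of their own Cg1-cre values.

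The members and lists were chosen with earlier results of these data known. Named were members past the threshold, the 8 of lowest p, the highest and lowest fold change of each role group and Pola1. Of other lists, called genes or the 1 of lowest p were named. Symbols of 331 of 335 list entries were matched, 5 through older symbols. Marker lists covered germinal centre, light zone, dark zone, naive B, plasma, T, natural killer, dendritic and erythroid cells, macrophages and neutrophils. Some single marker genes are not reported here.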

Additional observations from a re-analysis of the deposited data

How the results depend on the processing

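The count of members called was 0 under all 13 alternatives. Over all genes, 77 calls became 39 with upper-quartile factors, 28 with DESeq2, 51 with limma-voom, 16 with a minimum of 10 CPM, and 14 to 118 with 1 library left out. The members' median log2 fold change of -0.12 was -0.044 with upper-quartile factors and -0.039 with a minimum of 10 CPM. In the same order, origin licensing stood at -0.0147 and -0.00998, primase and polymerases at -0.0750 and -0.0694, and S phase regulators at -0.0859 and -0.0809. Small values changed sign in the same pair of fits: Mcm2 at 0.0407 and 0.0450, Mcm10 at 0.0292 and 0.0341, Rpa2 at 0.0212 and 0.0264, and Tyms at 0.0319 and 0.0373. Lig1 stood at -0.0175 with RLE factors and -0.0175 with DESeq2. The cause of these shifts was not tested.

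The labels number the replicates in both groups, but name no litter or day that equal numbers share. Same-numbered libraries' deviations from their group means correlated at -0.13 and -0.25. DAF-TM library 2 is also labelled replicate 3, and with Cg1-cre library 3 the value was 0.13. The deviations of the DAF-TM libraries mirror each other, so these values are not independent. Cg1-cre library 3 has no partner in the replicate block, so the fold changes of that fit rest on the other libraries. With the block 61 genes and 0 members were called, primase and polymerases stood at -0.19, Mcm2 at 0.0270 and Lig1 at -0.00645.

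With 1 library left out, the members' median ran from -0.24 to 0.00045. Origin licensing ran from -0.17 to -0.0419, the MCM helicase from -0.24 to 0.0770 and helicase activation from -0.18 to -0.0834. Primase and polymerases ran from -0.28 to 0.0401, the clamp group from -0.25 to -0.11 and Okazaki fragment joining from -0.16 to 0.0640. Nucleotide supply ran from -0.28 to -0.0156, S phase regulators from -0.25 to -0.0660 and chromatin and histone supply from -0.21 to 0.0455. Other replication genes ran from -0.21 to -0.0808, mitosis genes from -0.23 to 0.0030 and the G1 list from -0.17 to 0.00509. Brakes ran from -0.21 to 0.0816 and histone genes from -0.46 to -0.19. Single genes ran from -0.14 to 0.33 (Cdc6), -0.14 to 0.0819 (Mcm2), -0.12 to 0.0508 (Mcm10), -0.11 to 0.17 (Pold1), -0.16 to 0.0514 (Rpa2), -0.25 to 0.0522 (Fen1), -0.0703 to 0.0963 (Lig1), -0.13 to 0.0378 (Tyms), -0.12 to 0.25 (Ccne1) and -0.23 to 0.23 (Chaf1a). Those below 0 throughout ran from -0.29 to -0.15 (Orc6), -0.37 to -0.16 (Mcm6), -0.35 to -0.17 (Gins2), -0.44 to -0.20 (Pola1), -0.32 to -0.14 (Pcna), -0.27 to -0.19 (Rfc5), -0.48 to -0.11 (Rrm1), -0.47 to -0.0954 (E2f1) and -0.31 to -0.0927 (Slbp). At least 1 end of each of these ranges, except those of helicase activation, Pold1, Pcna and Rfc5, came from leaving out DAF-TM library 1 or 2. The cause was not tested. At these depths and with 5 libraries the members' intervals reached 0.637-fold and 1.36-fold.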

Other observations

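The zones of the germinal centre were read from short marker lists. Of 12 light zone genes, such as Cd83 and Cd86, 0 were called and the median log2 fold change was -0.07. Of 5 dark zone genes, such as Cxcr4, 0 were called and the median was -0.12. Of 14 germinal centre B cell genes 0 were called, 13 were below 0 and the median was -0.18. Over all genes 0.41% were called and 46.1% were below 0, and 68.2% of those with at least 10 CPM in 3 libraries were below 0. At an unadjusted p under 0.05 (edgeR) the counts in these lists were 1 of 12, 1 of 5 and 3 of 14, against 5.74% of all genes.

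Markers of other cells are given beside the 0.41% of all genes that edgeR called. Of 8 naive B cell genes tested 4 rose, among them Ccr7, Klf2 and S1pr1 (median 0.68; sums of 1665 and 1309 CPM in DAF-TM libraries, against 1303 to 1597 in Cg1-cre libraries). Of 9 plasma cell genes Prdm1 rose (0.33; 4694 and 3525, against 3620 to 5692). Of 14 T cell genes 2 rose, Cd3d and Tcf7 (0.82; 300 and 315, against 298 to 328). Of 12 natural killer cell genes 8 rose (1.53). Of 13 macrophage genes 4 rose, Csf1r, Vcam1, Slc40a1 and C1qb (0.66; 944 and 719, against 760 to 851). Of 8 dendritic cell genes Siglech rose (0.55; 100.3 and 89.7, against 78.5 to 83.7). Of 9 neutrophil genes Chil3, listed as Chi3l3, fell (-1.76; 29.7 and 74.4, against 89.9 to 284). Of 7 erythroid genes tested 0 were called (-0.03; 20.9 and 25.8, against 17.9 to 32.7), and Hba-a1 and Hba-a2 were at 0 in every library.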
